A study of Saccharomyces cerevisiae with 58 samples.

Results

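The genes described here are the 5 peroxiredoxins of Saccharomyces cerevisiae, TSA1 (YML028W), TSA2 (YDR453C), AHP1 (YLR109W), PRX1 (YBL064C) and DOT5 (YIL010W), together with the sulfiredoxin SRX1 (YKL086W). They were chosen by family membership, with earlier results of these data known. All 6 had 1 probe set each among the 5716 yeast probe sets tested. mRNA was measured on 58 expression arrays in an rpb6 Q100R mutant and in its isogenic parental wild type. Both strains were haploid ura3-52 his3Δ200 lys2Δ201 ade2 cells with the chromosomal RPB6 gene deleted (RPB6Δ::HIS3) in the mutant, where the altered allele came from a low-copy LEU2 plasmid, and both grew in rich medium (YPD) at 30 °C. The mutant grows more slowly than its parent. Rpb6 is a subunit of RNA polymerase II, and the polymerase with the Q100R form recruits the Rpb4/7 pair poorly.

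Each strain was sampled in 4 courses with 1 array per time point. The H2O2 course was sampled before hydrogen peroxide (0.3 mM) and 5, 10, 15, 25, 35 and 45 min after it. The MMS course followed 0.1% methyl methanesulfonate, a DNA-alkylating agent, from 0 min through 20, 40, 80, 100, 120, 140 and 180 min. In the H2O2 decay course the transcription inhibitor 1,10-phenanthroline was added 7 min after H2O2, and in the reference decay course it was added to cells without H2O2; both were sampled at the addition of the inhibitor and 5, 10, 20, 30, 40 and 50 min later. In these arrays a course was 1 culture. Each p-value from a course below therefore measures scatter about a fitted line or curve and not the spread between repeated cultures. The untreated comparison fitted no line or curve. It used 3 arrays per strain, 1 from each of 3 courses, and its p-values measure scatter between these courses.

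Peroxiredoxins reduce hydrogen peroxide and organic peroxides through a reactive cysteine, which thioredoxin then restores. Tsa1 is the major cytosolic enzyme and Tsa2 its close paralog, Ahp1 prefers alkyl hydroperoxides, Prx1 is the mitochondrial 1-Cys enzyme and Dot5 the nuclear one. Srx1 reduces the overoxidised cysteine of Tsa1 and so returns it to the cycle. In budding yeast the transcription factors Yap1 and Skn7 drive much of this gene set in peroxide.

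Values are log2 levels after robust multi-array averaging (RMA), and their number of arrays limits the precision. In untreated cells the RPO26 probe set, which reads the gene of the Rpb6 subunit, was lower in the mutant within each course. The mutant and wild type values were 12.60 and 13.50 for H2O2, 13.32 and 13.77 for MMS, and 13.01 and 13.46 for reference decay. RPO26 was picked after its values were seen, and the share of all probe sets that separate the strains in this way was not counted. These values are therefore no test of strain identity. Each decay array's change from 0 min was projected on that of 50 min over all tested probe sets. The probe sets that changed most weigh most in this. The wild type reference decay arrays of 10 and 20 min lay at 0.266 and 0.51 of the way. The mutant ones lay at 0.318 (labelled 10 min) and 0.09 (labelled 20 min). The members' slopes and levels in the mutant decay courses were therefore also computed without these arrays and with them exchanged, and half-lives and the slopes of other genes only as labelled. TSA1 and AHP1 were never below 14.20 on any array, where the brightest probe set of an array lay between 14.71 and 14.95. Changes near that upper end may be compressed. TSA1 and TSA2 are paralogs, and how far their probe sets read each other's mRNA was not tested.

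The untreated cells ask whether the mutation alone shifts the family against the average mRNA. RMA removes a difference in total mRNA between arrays. The paper, which used spiked-in RNA, reports a general reduction of mRNA levels in the mutant, which these values cannot show. Each strain had 3 arrays of cells without stress, the starting points of the H2O2, the MMS and the reference decay course, and strains were compared within each course. PRX1 had 12.07, 11.83 and 12.47 in the mutant in these courses, against 11.81, 11.63 and 11.69 in the wild type. The mutant value was the higher one within each course, by 0.41 ± 0.13 on the log2 scale (SE; 95% interval 0.07 to 0.75; limma with Benjamini-Hochberg adjustment over all tested probe sets, adjusted p = 0.152). SRX1 had 7.50, 7.77 and 8.47 in the mutant, against 7.08, 7.65 and 8.20 in the wild type. Again the mutant lay higher within each course, but the ranges over courses overlapped, and the difference of 0.27 ± 0.08 (95% interval 0.05 to 0.49) had an adjusted p of 0.147. The other 4 differed by -0.07 to 0.02, with intervals that stayed within -0.37 and 0.29. No member passed an adjusted p of 0.05, a threshold that 1.91% of the tested probe sets passed in either direction. By unadjusted p under 0.05, PRX1 and SRX1 were among 1472 probe sets.

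In H2O2 the family divided into 3 genes with large changes and 3 with small ones. SRX1 and TSA2 were the most strongly induced, by over 50-fold in both strains, and PRX1 rose about 4-fold in both. SRX1 read 7.50, 13.06, 13.20, 13.39, 12.95, 11.39 and 8.84 along the mutant course, and 7.08, 13.18, 13.32, 13.38, 12.87, 11.02 and 8.82 along the wild type course. In both strains 5 min sufficed for 94.6% and 96.8% of the largest log2 change, in the mutant and the wild type, and the level had lost most of its rise by 45 min. The largest change came at 15 min and was 5.89 in the mutant (59.3-fold) and 6.30 in the wild type (79.0-fold), with adjusted p of 0.0328 and 0.011 (limma, moderated F on the 3 terms of a natural spline). At 45 min 4.27% of the 15 min level was left in the mutant and 4.22% in the wild type.

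TSA2 read 8.20, 12.95, 13.62, 13.85, 13.95, 13.88 and 13.89 along the mutant course and 8.38, 13.15, 13.71, 13.94, 14.09, 14.11 and 13.94 along the wild type course. Unlike SRX1, TSA2 did not turn back within the sampled time. Its largest change was 5.75 (53.8-fold) in the mutant and 5.73 (53.1-fold) in the wild type, with limma adjusted p of 0.0129 and 0.00531. At 45 min 95.5% of the highest mutant level and 89.1% of the highest wild type level remained.

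PRX1 read 12.07, 13.46, 13.80, 13.92, 13.93, 13.88 and 13.70 in the mutant and 11.81, 13.53, 13.87, 13.96, 13.96, 13.94 and 13.54 in the wild type. Both strains reached nearly the same plateau, and the untreated mutant array started higher. The largest change was 1.86 (3.63-fold) in the mutant and 2.15 (4.44-fold) in the wild type, with limma adjusted p of 0.0104 and 0.00207.

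**Figure D1:**
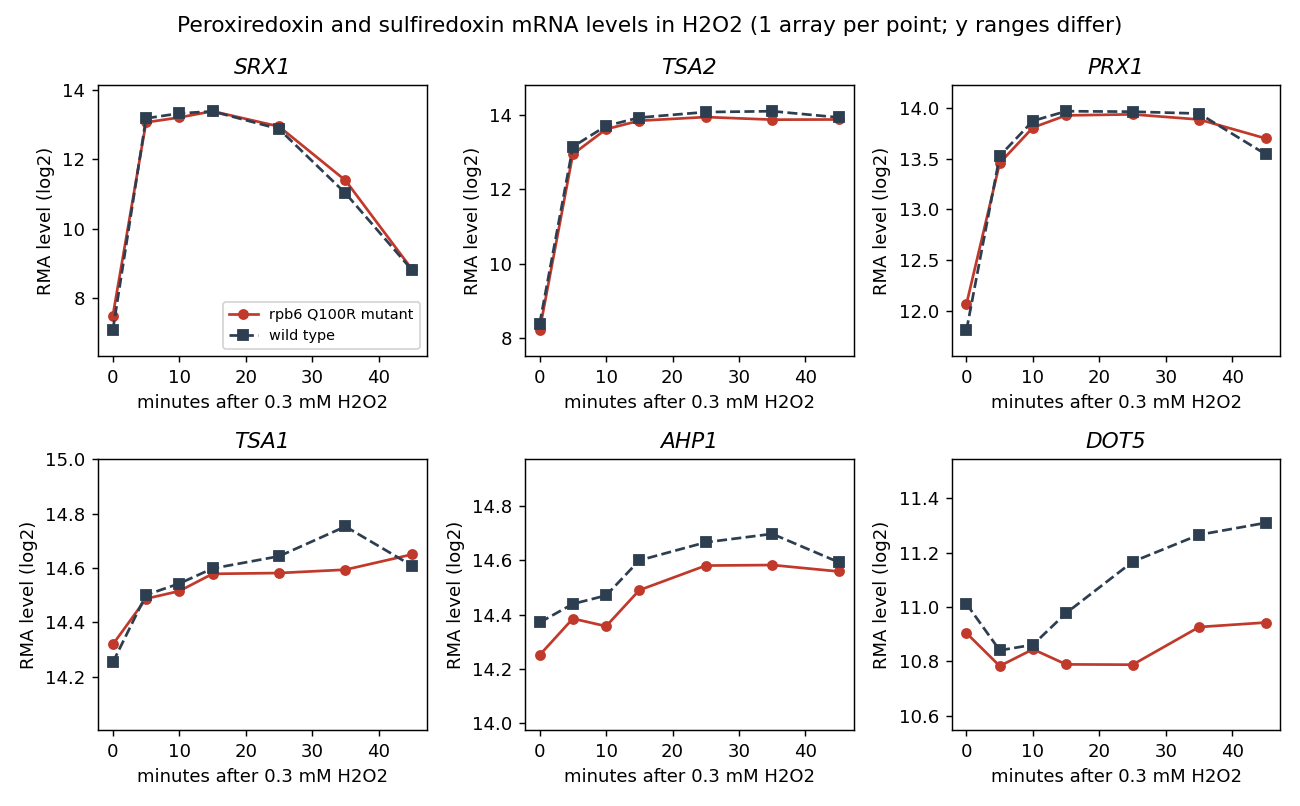
RMA level (log2, y) of each gene against minutes after 0.3 mM H2O2 (x) for the rpb6 Q100R mutant (red circles) and the wild type (dark squares), 1 array per point. SRX1 rises by 5.89 and 6.30 in the mutant and the wild type and returns toward its start, TSA2 stays up, and DOT5 ends at 10.94 in the mutant and 11.31 in the wild type.

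The highly expressed TSA1 and AHP1 changed by less than 1.5-fold. TSA1 had 14.32 to 14.65 in the mutant and 14.25 to 14.75 in the wild type, with a largest change of 0.33 in the mutant (limma adjusted p = 0.0598) and 0.50 in the wild type (adjusted p = 0.00627). AHP1 had 14.25 to 14.58 in the mutant and 14.37 to 14.70 in the wild type, and its largest change of 0.33 passed the test in both strains (adjusted p = 0.0145 and 0.00673 for the mutant and the wild type).

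DOT5, the nuclear enzyme, read 10.90, 10.78, 10.84, 10.79, 10.79, 10.93 and 10.94 in the mutant and 11.01, 10.84, 10.86, 10.98, 11.17, 11.27 and 11.31 in the wild type. Both strains were lower at 5 min than at 0 min, and at 45 min the mutant stood 0.04 and the wild type 0.30 above its start. The course passed the test in the wild type (limma adjusted p = 0.00171) and not in the mutant (adjusted p = 0.294). From 25 min on the mutant's change was 0.23 to 0.27 below that of the wild type, a difference along the course with an unadjusted p of 0.0134 and an adjusted p of 0.151.

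Thus 4 of 6 genes passed as higher in the mutant, where 12.5% of all tested probe sets did, and 6 of 6 in the wild type, where 28.7% did. The median of the largest log2 changes was 1.10 over the 6 genes against -0.11 over all probe sets in the mutant, and 1.32 against -0.10 in the wild type. The mutant count moved when single times were left out. It was 0 without the 10 min arrays and 2 without those of 15, 25 or 45 min. Without 10 min the largest mutant changes of TSA2, PRX1 and SRX1 were still 5.75, 1.86 and 5.89. Calls over all probe sets, in either direction, also fell there, from 1298 to 350. AHP1 and SRX1 had limma adjusted p of up to 0.0819 and 0.17 in the mutant over the alternatives. In the wild type SRX1 alone lost its call without the 10 min arrays (adjusted p = 0.0812). TSA1 lost its wild type call when that strain was fitted alone (limma adjusted p = 0.0522). In the mutant TSA1 gained a call with all arrays normalized together (adjusted p = 0.0146) and with the strain fitted alone (adjusted p = 0.0395). With an intensity trend TSA1 also gained a mutant call (limma adjusted p = 0.013), and SRX1 lost its own (adjusted p = 0.0901). The study's limit for a responsive gene, 0.81 on the log2 scale, was set on wild type changes, and is applied here to each strain. By this limit SRX1, TSA2 and PRX1 counted as induced in both strains. They were among 4.9% of probe sets in the mutant and 9.55% in the wild type.

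The response along the H2O2 course did not pass as different between strains for any member, while 1.24% of the tested probe sets did. The largest differences in log2 change, mutant minus wild type, were -0.54 for SRX1 at 10 min, -0.33 for PRX1 at 5 min, -0.23 for TSA1 at 35 min, 0.12 for TSA2 at 45 min and 0.09 for AHP1 at 45 min. SRX1 and PRX1 had smaller changes in the mutant at every sampled time, beside their higher level in the untreated mutant array. For SRX1 the departure from the fitted spline was 1.31 (residual SD, log2), larger than its difference of -0.54. This departure includes any misfit of the smooth curve to the steep rise and fall. The test could therefore not detect a strain difference of that size. In level, mutant minus wild type, SRX1 differed by 0.42 at 0 min and by -0.12 to 0.37 at the later times.

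MMS induced the same 3 genes, with time courses unlike those in H2O2. SRX1 read 7.77, 12.74, 13.20, 12.14, 12.21, 12.45, 12.75 and 13.00 in the mutant and 7.65, 12.39, 12.69, 11.66, 12.07, 12.40, 12.58 and 13.00 in the wild type. It dipped at 80 min in both strains and then stood high again, with 37.6-fold over the untreated array at 180 min in the mutant and 40.8-fold in the wild type. Its largest changes of 5.43 and 5.35 passed in the mutant and the wild type (limma adjusted p = 0.0204 and 0.0231), but not without the 40 min arrays (adjusted p = 0.187 and 0.178) nor, in the wild type, without those of 100 min (adjusted p = 0.0506). With 2 spline degrees of freedom they passed in neither strain (adjusted p = 0.174 and 0.15 in the mutant and the wild type).

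TSA2 read 8.82, 10.64, 13.11, 13.73, 13.66, 13.44, 13.02 and 12.16 in the mutant and 9.07, 11.11, 13.28, 13.79, 13.63, 13.30, 12.85 and 12.10 in the wild type. It was later than SRX1, with 36.9% of its largest log2 change at 20 min in the mutant and 43.3% in the wild type, where SRX1 had 91.4% and 88.5%. After 80 min TSA2 came down, to 33.5% of its highest level in the mutant and 31.0% in the wild type at 180 min. The largest changes, both at 80 min, were 4.91 (30.1-fold) and 4.72 (26.3-fold) in the mutant and the wild type, with limma adjusted p of 1.25e-07 and 1.81e-07.

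PRX1 was the only one of these 3 that climbed along the MMS course with its highest value at the last array in both strains. It read 11.83, 12.80, 13.64, 14.01, 14.05, 14.10, 14.11 and 14.19 in the mutant and 11.63, 12.65, 13.57, 13.85, 13.96, 14.06, 14.09 and 14.17 in the wild type. The change at 180 min was 2.35 (5.10-fold) in the mutant and 2.54 (5.80-fold) in the wild type, with limma adjusted p of 1.12e-07 and 6.45e-08.

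**Figure D2:**
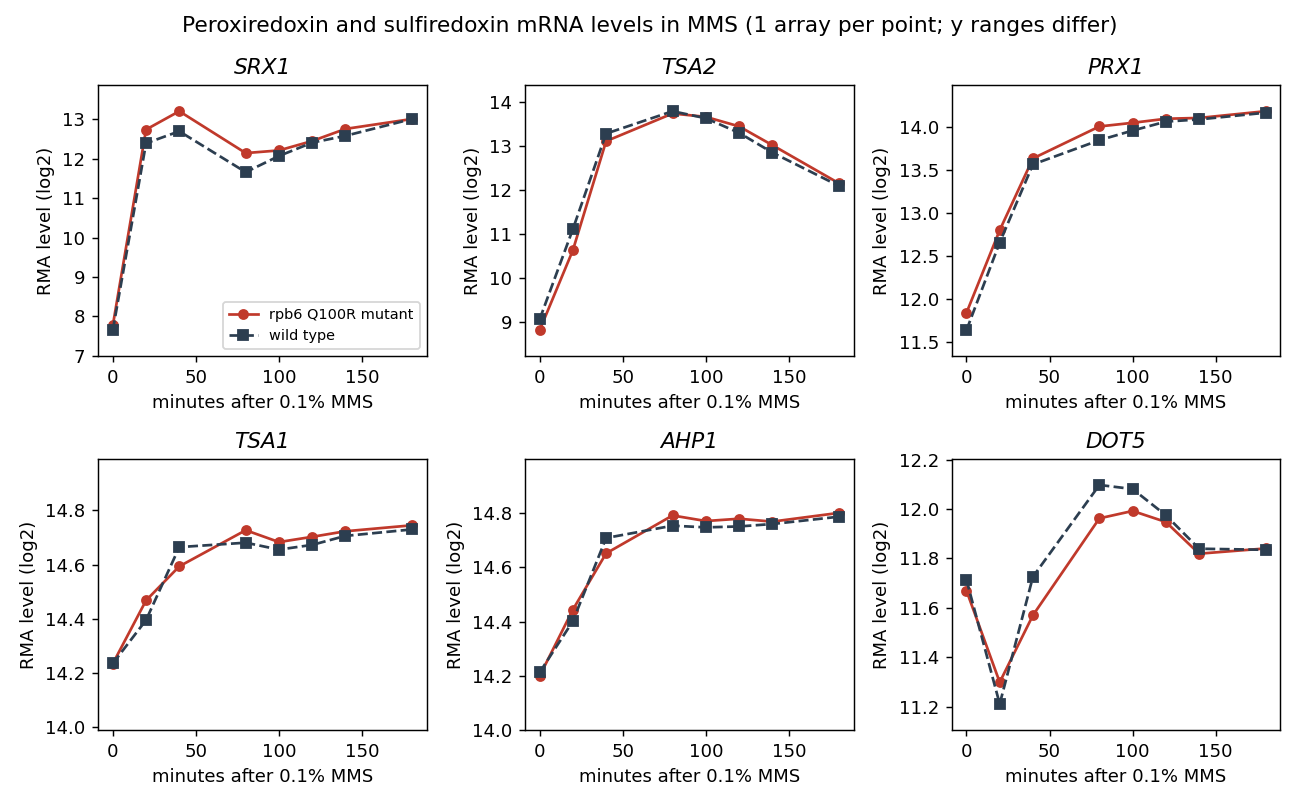
RMA level (log2, y) of each gene against minutes after 0.1% MMS (x) for the rpb6 Q100R mutant (red circles) and the wild type (dark squares), 1 array per point. TSA2 peaks at 80 min in both strains, SRX1 stays up to 180 min, and DOT5 is lowest at 20 min.

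TSA1 and AHP1 rose by 0.51 and 0.60 in the mutant and by 0.49 and 0.57 in the wild type at 180 min (limma adjusted p between 2.18e-05 and 0.000153). DOT5 was lowest at 20 min, by -0.37 in the mutant and -0.50 in the wild type, and highest at 100 min in the mutant (11.99) and at 80 min in the wild type (12.10). It passed in neither strain (adjusted p = 0.156 and 0.118 in the mutant and the wild type), but did with 4 spline degrees of freedom (adjusted p = 0.0407 and 0.0236).

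In MMS 5 of 6 genes were called higher in each strain, against 44.6% of all tested probe sets in the mutant and 45.8% in the wild type. The median largest log2 change was 1.48 over the 6 genes and 0.25 over all probe sets in the mutant, and 1.56 and 0.24 in the wild type. Past the study's limit of 0.81, 3 of 6 were higher in each strain, against 29.4% of probe sets in the mutant and 30.3% in the wild type. No member's course differed between strains by the test that 3.32% of probe sets passed; the largest differences in log2 change were 0.42 for TSA2 at 140 min, 0.39 for SRX1 at 40 min and -0.19 for PRX1 at 140 min. Doses and times of the 2 stresses differ, so H2O2 and MMS values stand side by side without a test.

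The decay courses ask how the mRNAs lasted once transcription was blocked, and whether H2O2 changed that. RMA removes the average loss of mRNA from each array, so a slope of 0 means that an mRNA declined as the average one did, and a positive slope that it declined more slowly or gained. At the moment of the inhibitor, 7 min into H2O2, SRX1 stood 5.31 ± 0.12 above the reference in the mutant and 5.87 ± 0.12 above it in the wild type (fitted level difference ± SE). TSA2 stood 4.27 ± 0.14 and 4.52 ± 0.14 above it in the mutant and the wild type, and PRX1 1.21 ± 0.07 and 2.17 ± 0.07. These were single cultures apart from those of the H2O2 course. TSA1 and AHP1 stood 0.13 to 0.20 above the reference in either strain, and DOT5 lay 0.08 below it in the mutant and 0.06 below it in the wild type. Higher levels passed for 5 of 6 genes in each strain, all but DOT5, against 6.3% of tested probe sets in the mutant and 10.4% in the wild type. Without the 5 min arrays TSA1 and AHP1 did not pass in the mutant, which left 3 genes (adjusted p = 0.107 and 0.0536), and AHP1 did not pass in the wild type (adjusted p = 0.131). The call of TSA1 in the mutant was also lost without the arrays of 0 or 10 min, over 0 to 30 min (adjusted p = 0.0862) and without the mutant reference arrays of 10 and 20 min (adjusted p = 0.0531), and that of AHP1 in the wild type was lost without those of 0 min. With the mutant reference arrays of 10 and 20 min left out or exchanged, the mutant levels were 5.35 for SRX1, 4.28 or 4.30 for TSA2 and 1.18 or 1.22 for PRX1.

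Without H2O2, SRX1 behaved differently in the 2 strains after phenanthroline. In the reference decay course it read 8.47, 8.33, 8.81, 8.45, 8.86, 8.83 and 9.23 in the mutant and 8.20, 8.28, 8.28, 8.85, 9.56, 9.93 and 10.64 in the wild type. The wild type gained 2.44 against the average mRNA over 50 min, while the mutant gained 0.77. The slopes were 0.0139 ± 0.0029 log2 per min in the mutant and 0.0505 ± 0.0029 in the wild type (SE), a difference of -0.0366 ± 0.0041 (limma adjusted p = 9.63e-07).

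PRX1 read 12.47, 12.36, 12.48, 12.40, 12.57, 12.83 and 12.96 in the mutant reference course and 11.69, 11.75, 11.84, 12.29, 12.79, 13.17 and 13.37 in that of the wild type. The mutant began higher and ended lower. The slopes were 0.0109 ± 0.0018 in the mutant and 0.0371 ± 0.0018 in the wild type, a difference of -0.0261 ± 0.0025 (adjusted p = 1.65e-07).

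TSA2 rose against the average mRNA in both reference courses, with 9.54 to 10.90 in the mutant and 9.24 to 11.13 in the wild type between 0 and 50 min. Its slopes of 0.0291 ± 0.0035 in the mutant and 0.0394 ± 0.0035 in the wild type differed by -0.0103 (adjusted p = 0.108). Over 0 to 30 min alone the difference was -0.0310 (adjusted p = 0.00791), and it also passed without the 50 min arrays (-0.0160; adjusted p = 0.048). The remaining genes had slopes between 0.0005 and 0.0043 in the reference courses of both strains. Lower slopes in the mutant were thus called for SRX1 and PRX1, 2 of 6, where 19.1% of the tested probe sets were called lower. Without the mutant arrays of 10 and 20 min the differences were -0.0352 for SRX1, -0.0263 for PRX1 and -0.0092 for TSA2, and with these exchanged -0.0349, -0.0258 and -0.0088 (adjusted p = 0.1 and 0.0881 for TSA2).

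**Figure D3:**
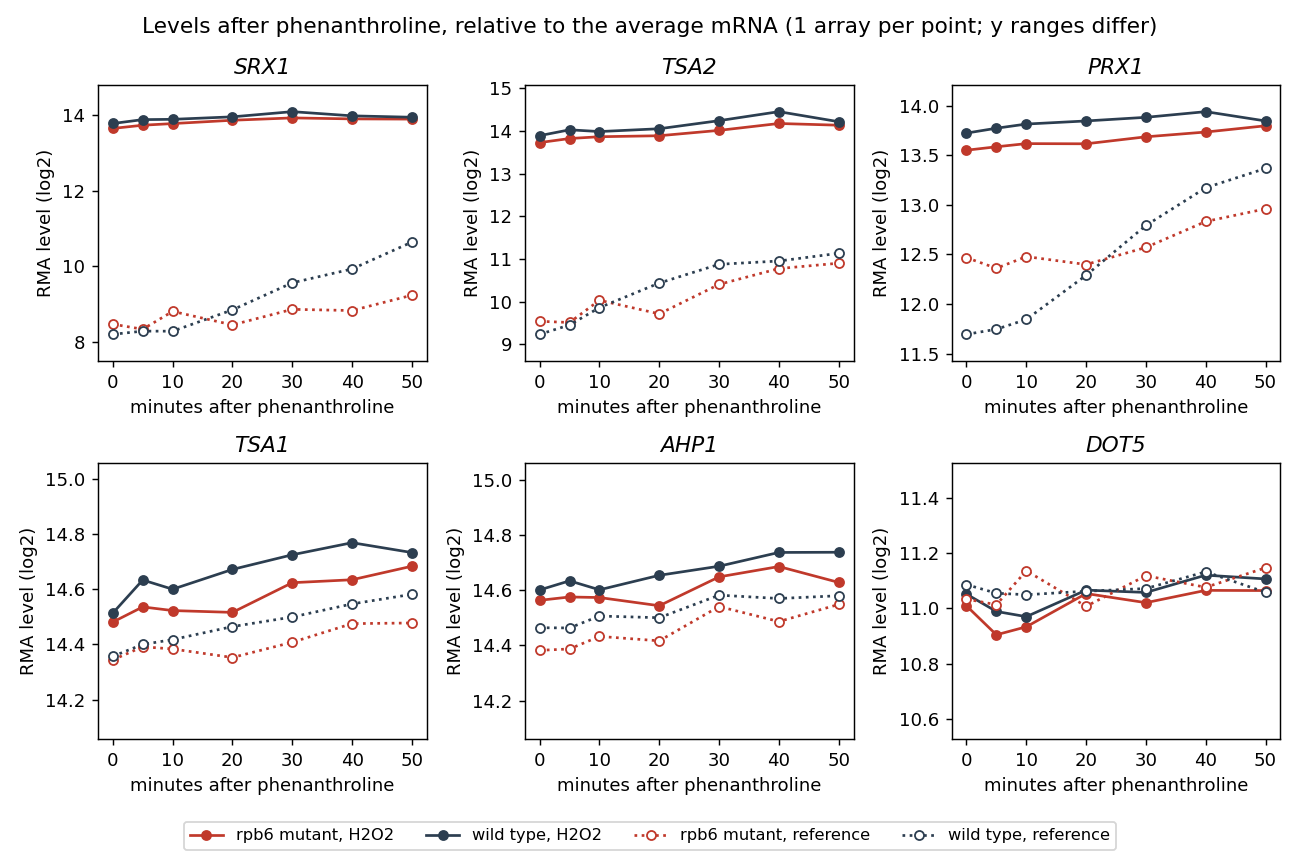
RMA level (log2, y) against minutes after phenanthroline (x), for H2O2 decay (filled, solid) and reference decay (open, dotted) in the rpb6 mutant (red) and the wild type (dark), 1 array per point. After H2O2 the curves of SRX1, TSA2 and PRX1 are nearly flat relative to the average mRNA and lie above those of the reference course. In the reference course SRX1 reaches 9.23 in the mutant and 10.64 in the wild type.

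After H2O2 the strain difference was not seen, at levels nearer the upper end of the scale, where changes may be compressed. SRX1 stayed between 13.65 and 13.93 in the mutant and between 13.78 and 14.09 in the wild type, TSA2 between 13.73 and 14.17 in the mutant and 13.89 and 14.45 in the wild type, and PRX1 between 13.55 and 13.80 in the mutant and 13.72 and 13.94 in the wild type. Slopes of SRX1 were 0.0048 in the mutant and 0.0035 in the wild type, those of PRX1 0.0046 and 0.0030, and those of TSA2 0.0086 in both strains. The mutant minus wild type difference was 0.0014 for SRX1 (95% interval -0.0071 to 0.0099) and 0.0016 for PRX1 (95% interval -0.0036 to 0.0068), and none of the 6 passed, where 41.4% of all tested probe sets did in one direction or the other.

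In the wild type the slopes of the 3 induced genes were lower after H2O2 than in the reference. H2O2 minus reference, SRX1 had -0.0471 ± 0.0041 log2 per min (limma adjusted p = 4.29e-08), PRX1 -0.0341 ± 0.0025 (adjusted p = 4.9e-09) and TSA2 -0.0308 ± 0.0050 (adjusted p = 0.000258), 3 of 6 genes where 4.93% of probe sets were called lower. In the mutant TSA2 alone was called, with -0.0205 ± 0.0050 (adjusted p = 0.0305), 1 of 6 where 1.4% of probe sets were called lower. SRX1 had -0.0091 ± 0.0041 and PRX1 -0.0063 ± 0.0025 in the mutant. Without the reference arrays of 10 and 20 min these values were -0.0216 for TSA2, -0.0106 for SRX1 and -0.0061 for PRX1, and with the arrays exchanged -0.0220, -0.0108 and -0.0067, with a call again for TSA2 alone. The TSA2 call in the mutant was lost over 0 to 30 min (adjusted p = 1) and without the arrays of 0, 5, 10, 40 or 50 min, each left out alone.

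The strain difference of this change was tested itself. SRX1 had 0.0380 ± 0.0058 (mutant minus wild type; 95% interval 0.026 to 0.050; limma adjusted p = 0.00133) and PRX1 0.0277 ± 0.0036 (95% interval 0.0204 to 0.0351; adjusted p = 0.000148), 2 of 6 genes where 0.56% of the tested probe sets were called higher. TSA2 had 0.0103 ± 0.0070, with a 95% interval of -0.0043 to 0.0248. Without the mutant reference arrays of 10 and 20 min the values were 0.0365 for SRX1 and 0.0279 for PRX1, and with these arrays exchanged they were 0.0363 and 0.0274. Over 0 to 30 min SRX1 had 0.0344 and did not pass (adjusted p = 0.779). PRX1 had 0.0332 (adjusted p = 0.0492).

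**Figure D4:**
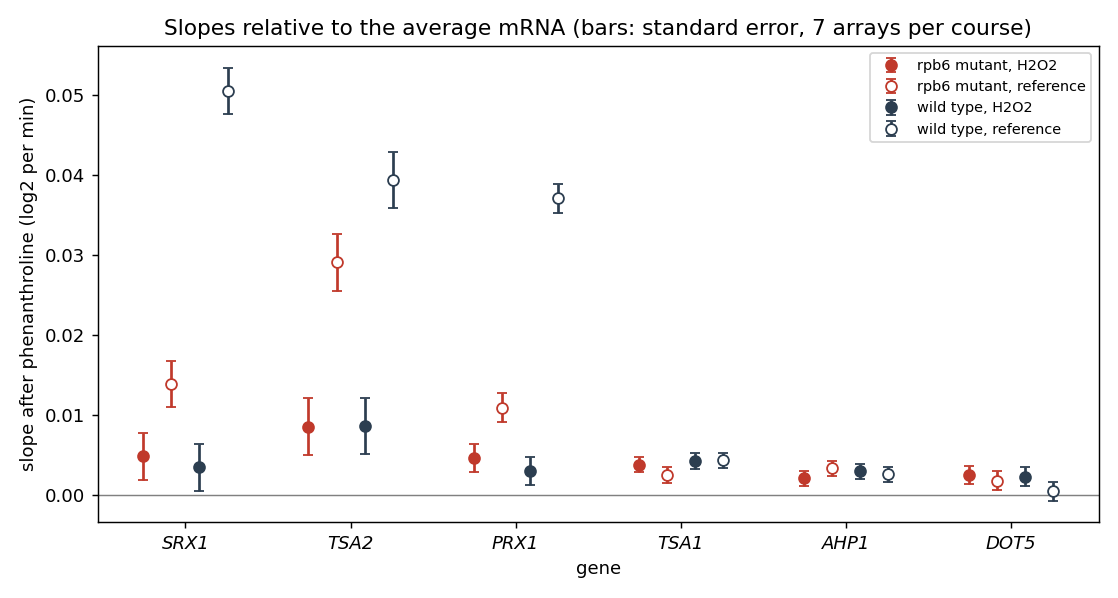
Slope of the log2 level after phenanthroline (y, log2 per min, relative to the average mRNA; bars are the standard error, 7 arrays per course) for each gene (x) in 4 courses. The wild type reference slopes of SRX1 (0.0505), TSA2 (0.0394) and PRX1 (0.0371) stand above the H2O2 slopes, and TSA1, AHP1 and DOT5 lie near 0 throughout.

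The deposited decay ratios, which the authors rescaled to a common average decay, gave apparent half-lives. That rescaling multiplied the ratio at 50 min by a factor between 0.261 and 0.262 in all 4 courses, so absolute half-lives follow from it and a shift of the average between strains or conditions cannot be seen. The factors themselves fall nearly exponentially with time. An mRNA that stayed near the average therefore fits well by construction, and its good fit is no separate result. After H2O2 all 6 genes fitted an exponential with R2 over 0.9, with half-lives of 27.1 to 33.5 min in the mutant and 26.8 to 34.1 min in the wild type. TSA2 had the longest in both strains, with 33.5 ± 1.3 min and 34.1 ± 2.4 min (SE of the fit) in the mutant and the wild type. In the reference courses TSA1, AHP1 and DOT5 had 27.1 to 28.4 min in the mutant and 25.9 to 29.3 min in the wild type. PRX1 had 32.7 ± 3.2 min in the mutant and an R2 of 0.091 in the wild type, where its ratio was still 0.835 at 50 min. SRX1 and TSA2 stayed below that R2 in both reference courses. Their scaled ratios at 50 min were 0.445 and 0.672 in the mutant, against 1.42 and 0.976 in the wild type, so the wild type ratio of SRX1 exceeded its starting value.

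The H2O2 courses with and without the inhibitor can be set beside each other for the 3 induced genes, without a test, because the 2 sets were normalized apart. Without phenanthroline SRX1 lost 4.55 on the log2 scale between 15 and 45 min of H2O2 in the mutant and 4.57 in the wild type, which is 1 halving in 6.59 and 6.57 min in the mutant and the wild type. With phenanthroline, between 17 and 47 min of H2O2, its level changed by 0.12 in the mutant and 0.09 in the wild type against the average mRNA, and by -1.04 and -1.09 on the authors' rescaled ratios. TSA2 changed by 0.03 in the mutant and less than 0.01 in the wild type over the same 30 min without the inhibitor. PRX1 changed by -0.23 in the mutant and -0.42 in the wild type.

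**Figure D5:**
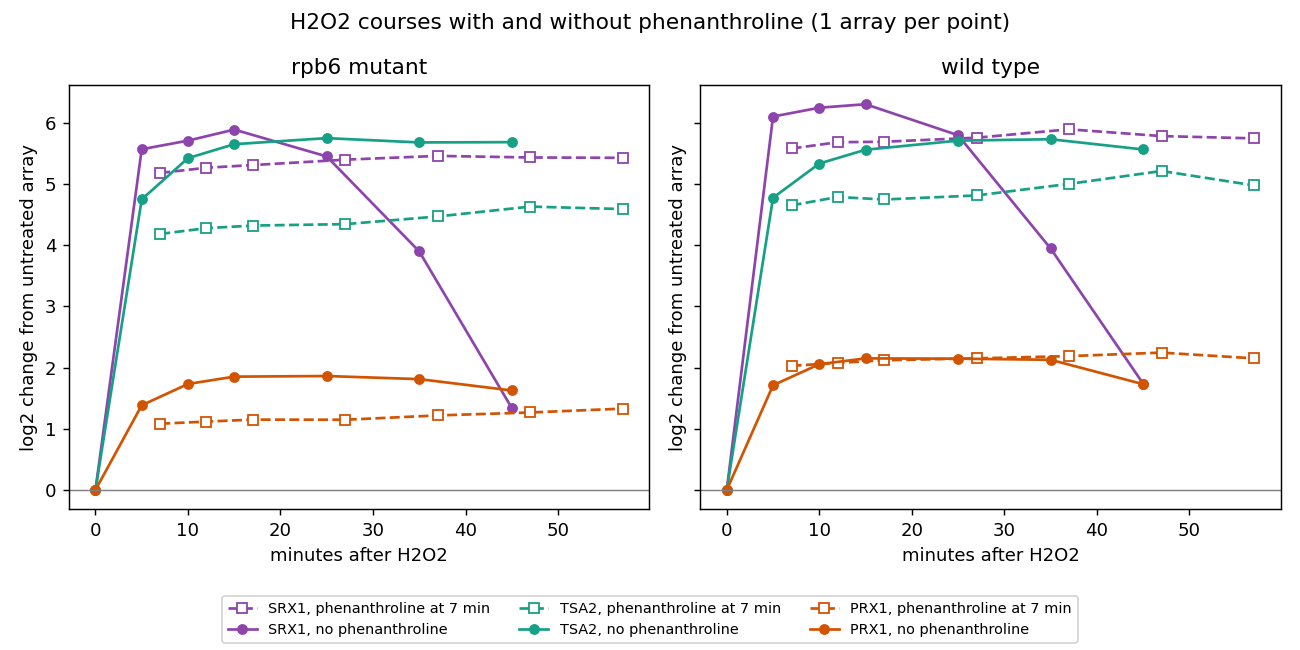
Log2 change from the untreated array of the same set (y) against minutes after H2O2 (x) with phenanthroline at 7 min (open squares, dashed) and without it (filled circles, solid), in the rpb6 mutant (left) and the wild type (right), 1 array per point. Between 15 and 45 min SRX1 falls by 4.55 and 4.57 without the inhibitor in the mutant and the wild type. With it SRX1 stays level relative to the average mRNA, whose loss RMA removes. On the authors' rescaled ratios it changes by -1.04 and -1.09 between 17 and 47 min.

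The members did not move as 1 group. Over the 26 treated arrays of the H2O2 and MMS courses, which share their 0 min arrays and time trends, log2 changes of TSA1 correlated with those of AHP1 (r = 0.853), PRX1 (r = 0.834) and DOT5 (r = 0.806). SRX1 and TSA2 had r = -0.139 with each other, and TSA1 and TSA2 r = -0.018. The probe sets most like SRX1 over these arrays were ISU2, a scaffold protein of iron-sulfur cluster assembly (r = 0.930), GRE2, a methylglyoxal reductase (r = 0.893), and GSH1, which begins glutathione synthesis (r = 0.886). Those most like AHP1 were CRG1, MPC3, a mitochondrial pyruvate carrier subunit, and CAP1, a subunit of actin capping protein, with r of 0.957 to 0.962.

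TSA1 lay closest to YET1, RDL1 and MSS2 (r = 0.917 to 0.930), PRX1 to PET8, PTC3 and ECL1 (r = 0.906 to 0.920) and DOT5 to YPR172W, PST2 and BNA6 (r = 0.907 to 0.922). TSA2 lay closest to AIM6, SNT2 and PTC7 (r = 0.882 to 0.903). Over the 26 arrays the log2 changes of these 3 lay between -0.63 and 0.17 for AIM6, -0.81 and 0.08 for SNT2, and -0.31 and 0.17 for PTC7, so that they shared the shape with TSA2 but lay mostly below their untreated level or near it.

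The 20 genes of the thioredoxin, glutathione, catalase and regulator list were tested in the same fits. That list, too, was chosen with earlier results of these data known. In H2O2 13 of 20 were higher and 1 lower in the mutant, where 12.5% of all tested probe sets were higher and 10.2% lower, and 18 were higher and 1 lower in the wild type, where 28.7% were higher and 27.6% lower. The list's median largest log2 change was 0.63 in the mutant and 1.17 in the wild type, against -0.11 and -0.10 over all probe sets. The gene that was lower in both strains was SKN7, with -0.34 in the mutant and -0.70 in the wild type (limma adjusted p = 0.0201 and 0.000392). YAP1, the peroxide-sensing regulator, rose by 1.28 in the mutant and 1.34 in the wild type (adjusted p = 0.00633 and 0.00147). The cytosolic thioredoxin TRX2 rose by 0.60 and 0.77 (adjusted p = 0.0222 and 0.00473), and TRR1, the thioredoxin reductase that recharges it, by 1.29 and 1.31 (adjusted p = 0.0194 and 0.00712), in the mutant and the wild type.

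In MMS 18 of 20 were higher and 1 lower in the mutant, and 16 higher and 1 lower in the wild type. Over all probe sets 44.6% were higher and 39.2% lower in the mutant, and 45.8% and 41.5% in the wild type. The list's medians were 1.31 in the mutant and 1.38 in the wild type, against 0.25 and 0.24 over all probe sets. YAP1 reached 2.05 in the mutant and 2.10 in the wild type, and SKN7 -1.04 and -1.06 (adjusted p between 4.01e-07 and 0.000108). TRX2 rose by 0.96 in the mutant and 1.04 in the wild type (adjusted p = 3.53e-06 and 2.32e-06), and TRR1 by 0.90 and 0.68 (adjusted p = 0.0219 and 0.0447). Of the 20, the H2O2 course differed between strains for 1, the cytosolic catalase CTT1, with a largest difference in log2 change of -1.96, mutant minus wild type (adjusted p = 0.031), where 1.24% of all probe sets passed. The MMS course differed for 1, the peroxidase GPX1, with a largest difference of 1.24 (adjusted p = 0.0111), where 3.32% passed. The reference slope was lower in the mutant for 8 of 20, against 19.1% of all probe sets, YAP1 among them with -0.0248 ± 0.0045 (adjusted p = 0.000184) and TRR1 with -0.0067 ± 0.0021 (adjusted p = 0.0158).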

How the data were processed

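The authors deposited log2 levels of Affymetrix Yeast Genome 2.0 arrays after RMA, normalized in 3 sets (14 H2O2, 16 MMS and 28 decay arrays), and ratios of decay levels to 0 min rescaled to a common mean decay. A further 30 columns of per-sample values, the authors' fold changes, were not used; genome builds are not given in the sources used here. Of 10928 probe sets, 5716 were tested as S. cerevisiae (5498 with 1 gene symbol; 218 with no listed gene), and 97.6% of them lay above the 95th percentile of S. pombe probe sets (5.11). Tests used limma 3.58.1 in R 4.3.3 with Benjamini-Hochberg adjustment over all 5716 and a threshold of 0.05: natural splines of 3 degrees of freedom for stress courses, straight lines for decay, and course as a block for untreated arrays. In the untreated arrays the 2 strains' deviations correlated within each course (r = 0.661, 0.818 and 0.737). The response value is the sampled change of largest absolute size, which also gives its direction. Likeness was Pearson r, naming the 3 probe sets with the highest r per member; pathway genes named were TRX2, TRR1, YAP1 and SKN7, and CTT1, GPX1 and RPO26 were added after their values were seen. Half-lives were exponential fits (scipy 1.17.1) with a free start. The linear and spline fits were run on simulated data whose stress changes were linear in time. A steep rise and fall, as in SRX1, and a strain difference in the reference slope were not simulated. The members and lists were chosen with earlier results of these data known.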

Additional observations from a re-analysis of the deposited data

Results flagged for a closer look

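The change of slope with H2O2 after phenanthroline differed between strains, by the test of that difference itself, for SRX1 (0.0380 log2 per min, mutant minus wild type) and PRX1 (0.0277). For both genes the difference lay in the reference courses, where the mutant minus wild type slopes were -0.0366 and -0.0261, and in H2O2 they were 0.0014 and 0.0016. Each course was 1 culture of 7 arrays, and strain and culture cannot be told apart.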

How the results depend on the processing

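Counts of members past the threshold stayed within 1.5 times, under normalization of all arrays together, a filter on dim probe sets, an intensity trend and the other settings listed, except as follows. In H2O2 the mutant count of 4 was 2 with 2 spline degrees of freedom and 0 to 4 when single times were left out (0 without 10 min; 2 without 15, 25 or 45 min). The count of 1 for the mutant's change of slope was 0 over 0 to 30 min and 0 to 1 when single times were left out, and the strain difference of that change had 1 in place of 2 over 0 to 30 min. The mutant count of 5 at phenanthroline was 3 to 5 when single times were left out. Without the 20 min arrays the largest DOT5 change in MMS was 0.32 in the mutant and 0.38 in the wild type, not -0.37 and -0.50, and passed in neither (adjusted p = 0.208 and 0.175). Of 43 member values called under at least 1 setting, these were the 2 that changed sign; over 568 recomputations, 36 lost a call and 9 gained one. A further 41 values were called under no setting, and 20 of them changed sign in at least 1. Without the replicate block the untreated comparison called 0 members and 1 probe set in all, against 109 with it, 498 with an intensity trend and 7 without the reference decay arrays. Over all probe sets, called counts ranged from 350 to 1662 for the mutant H2O2 response (1298 as reported), 3 to 254 for its strain difference (71), 5 to 278 for that in MMS (190), 0 to 474 and 163 to 706 for the change of slope in the mutant (156) and the wild type (588), 7 to 53 for its strain difference (37), 1378 to 2288 and 1034 to 2577 for the reference (2090) and H2O2 (2369) slope differences, and 398 to 860 and 849 to 1742 for the level at phenanthroline in the mutant (728) and the wild type (1576). For the gene and course pairs with R2 over 0.9, half-lives from the other 2 fits lay between 25.4 and 36.0 min.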
